A study of Homo sapiens with 2 samples.

Results

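Expression of 39 genes for collagen chains, laminin chains, matrix glycoproteins, proteoglycans and the enzymes that act on them was followed in the OECM1 line, a long-established line of head and neck carcinoma cells, once a let-7i vector had been stably introduced. The genes were chosen by name, with earlier results of these data known. Every probe set of the array whose annotated gene symbol was one of the 39 was taken. This gave 115 of 41097 probe sets with 1 symbol and 37 of 19775 named genes. The signals of COL17A1 and LAMA3 were not analysed here. The cells carrying pmCherry-let7i, a vector for the microRNA let-7i marked with the red fluorescent protein mCherry, were compared with cells carrying the pmR-mCherry empty vector, both grown in RPMI medium with fetal bovine serum. The labels do not say whether each culture was 1 clone or a pool. With 1 array in each group, differences have no replicate check, neither a p-value nor an SD between cultures can be given, and the vector, the culture and the array cannot be told apart.

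Extracellular matrix comes in 2 broad forms. The basement membrane is a thin sheet under epithelia in which a type IV collagen network and a laminin network are joined, and in stratified epithelia type VII collagen ties it to the tissue below. The interstitial matrix holds fibrillar collagens, the microfibrillar type VI collagen, fibronectin and the glycoproteins and proteoglycans that decorate them, and lysyl oxidases cross-link its collagen. In carcinomas the interstitial genes are made largely by fibroblasts, and tumour cells that take on mesenchymal traits can make some of them too. The question here was whether the 2 forms of matrix differed in the same way with let-7i.

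The microRNA expressed from the vector is shown because its seed, bases 2 to 8 in capitals, is what pairs with target messenger RNAs (RefSeq, GRCh38.p14). The array does not measure it, and target sites in the 39 genes were not analysed here.
let-7i-5p, chr12:62603691-62603712, plus strand: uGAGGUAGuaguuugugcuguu

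The values are MAS5 signals, brightness per probe set on a linear scale. A gene is given by its brightest probe set unless stated otherwise, and levels of different genes are not compared because each probe set has its own brightness. The floor of an array was its median signal, 79.5 on the let-7i array and 88.0 on the empty vector array. Signals under the floor were raised to it, and the size of the ratio is then a lower bound. Log2 ratios are let-7i over empty vector, centred on the median of the genes that reached the floor on both arrays, called measured below. The spread of 1 probe set was an SD of 0.25 in log2 ratio, over 5807 genes with several measured probe sets. It was 0.33 among their dimmest 25% and 0.19 among their brightest 25%, and covers probe noise only. The epithelial markers EPCAM, CDH1, KRT8, KRT18 and SFN were measured, with log2 ratios from -0.71 to 0.02, while the basal keratins KRT5 and KRT14 were below the floor on both arrays.

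The 11 basement membrane genes among the 39 had log2 ratios between -0.34 and 0.35, while the interstitial ones ran from -1.04 to 2.94. The median absolute log2 ratio of these 11 was 0.24, above the 0.18 of all measured genes. Further basement membrane genes outside the 39, given at the end, were mostly lower with let-7i (median log2 ratio -0.59). Of the 39 genes, 30 reached the floor on 1 array or both, 26 of them measured, and 7 were below it on both. In all 5 were at least 2-fold higher with let-7i (COL6A1, POSTN, SPARC, TNC and CCBE1) and 1 was at least 2-fold lower (FN1), where 2.43% of all 12284 genes above the floor passed 2-fold either way, 1.06% higher and 1.38% lower. None of the 11 basement membrane genes passed 2-fold, against 5 of 14 interstitial genes. Each gene had been given 1 role from a list, and other assignments were not tried. For a list of 11, none is near the share of 2.43% over all genes. Over the measured genes alone 4 of 26 passed, 3 higher and 1 lower, where 1.99% of all 11140 measured genes passed, 0.862% higher and 1.13% lower. Of the 73 probe sets of these genes above the floor, 8 were at least 2-fold higher and 2 lower, where 2.37% of all 23919 such probe sets passed either way. POSTN and SPARC passed the floor through the let-7i array alone and FBN1 and COL13A1 through the empty vector array alone, so the ratios of these 4 are bounds that move with the floor.

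**Figure D1:**
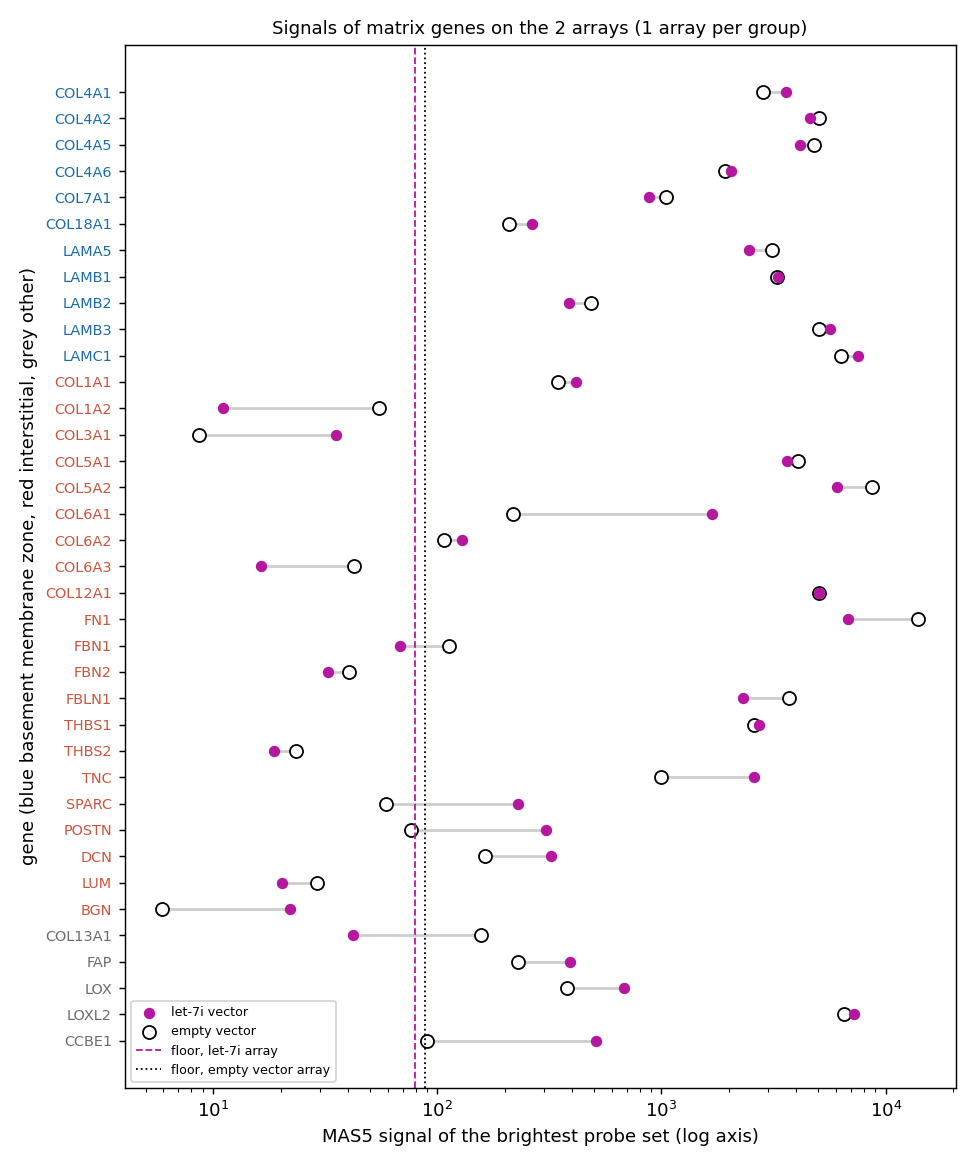
MAS5 signal (log axis) of the brightest probe set of each of the 37 genes on the let-7i array (filled) and the empty vector array (open), with the floor of each array as a vertical line. The pairs of points nearly coincide for the basement membrane genes at the top. Among genes measured on both arrays they lie far apart for COL6A1, CCBE1, TNC and FN1. Pairs with a point below the floor, such as those of POSTN and COL1A2, can also lie far apart.

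Type IV collagen is the network former of the basement membrane. Its chains COL4A1, COL4A2, COL4A5 and COL4A6 were at similar signals in both cultures. This did not hold for COL4A4, given at the end with the further genes, which was at least 2.91-fold lower with let-7i. COL4A3 was below the floor on both arrays. COL4A1 had a signal of 3605 with let-7i and 2831 with the empty vector, a log2 ratio of 0.35, but its second probe set (716 with let-7i and 768 with the empty vector) gave -0.10. COL4A2, the partner of COL4A1 in the common heterotrimer, had 4612 with let-7i and 5036 with the empty vector, its 2 probe sets giving log2 ratios of -0.13 and 0.15. For both genes the probe sets pointed opposite ways, by at most 0.35. The SD of 1 probe set was 0.25, or 0.19 among bright genes.

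COL4A5 had 4148 with let-7i and 4795 with the empty vector (-0.21), while a dim second probe set (165 with let-7i and 121 with the empty vector) gave 0.45. COL4A6 had 2032 with let-7i and 1910 with the empty vector, and its 3 probe sets gave log2 ratios between 0.09 and 0.40. These chains form a network of epithelial basement membranes, and neither reached 1.5-fold in any probe set.

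The paired type IV genes lie head to head. The starts of COL4A1 and COL4A2 have 126 bases between them and those of COL4A5 and COL4A6 have 379. The stretch between COL4A1, read leftwards, and COL4A2, read rightwards, is shown because both chains are transcribed from it (RefSeq, GRCh38.p14). Capitals mark a match to CCAAT, the motif of the CCAAT box. They also mark a match to GGGCGG, the motif of the GC box. Both were searched for on either strand.
COL4A1 to COL4A2, chr13:110307158-110307283, plus strand: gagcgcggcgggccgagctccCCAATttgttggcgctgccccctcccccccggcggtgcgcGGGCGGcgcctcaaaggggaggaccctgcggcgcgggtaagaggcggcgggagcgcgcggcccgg

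Laminin chains join as alpha, beta and gamma in a cross-shaped molecule. Of these, LAMC1, LAMB1 and LAMB3 were at similar signals in both cultures. LAMC1, the common gamma chain, had 7506 with let-7i and 6338 with the empty vector (0.24), and its second probe set gave -0.03. LAMB1, a beta chain, had 3325 with let-7i and 3261 with the empty vector (0.02). LAMB3, the beta chain of the laminin under squamous epithelium, had 5650 with let-7i and 5038 with the empty vector (0.16). All 3 were within 1.2-fold of the empty vector culture.

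LAMA5, the alpha chain of most adult epithelial basement membranes, had 2449 with let-7i and 3102 with the empty vector, a 1.27-fold lower level. LAMB2, another beta chain, had 385 with let-7i and 485 with the empty vector (1.26-fold lower). Each of these genes rests on 1 probe set, and the log2 ratios of -0.34 are 1 to 2 times the SD of 1 probe set. COL7A1, the collagen of anchoring fibrils, had 878 with let-7i and 1052 with the empty vector, with log2 ratios of -0.26 and -0.02. COL18A1, the source of endostatin, had 264 with let-7i and 209 with the empty vector, with log2 ratios of 0.34 and -0.11.

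Over the 11 basement membrane genes, 6 were higher and 5 lower, the ratios ran from -0.34 to 0.35, and the median was 0.02, against -0.01 for all genes above the floor. All 20 of their probe sets were above the floor on both arrays, and none was past 2-fold.

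COL6A1 had the highest ratio of the 39. It encodes 1 of the 3 chains that make up the common form of type VI collagen, a beaded microfibril around cells. Its signal was 1673 with let-7i and 217 with the empty vector, a 7.67-fold higher level. The second probe set had 562 with let-7i and 95.7 with the empty vector (2.55). A further 3 probe sets had 189, 176 and 225 with let-7i against 63.8, 17.6 and 11.05 with the empty vector, which is below the floor and gives lower bounds of 1.10, 0.996 and 1.35. All 5 probe sets above the floor on at least 1 array were higher with let-7i, and the other 3 were below it on both arrays. Using only probe sets that match a single transcript gave a lower bound of 1.11 for the log2 ratio, which does not show a smaller difference. Averaging the 5 probe sets, 3 of them bounds, gave a bound of 1.82.

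For the partner chains of COL6A1 the size of a difference was measured in 1 probe set alone. COL6A2 had 130 with let-7i and 108 with the empty vector (0.26), close to the floor. Its other probe set had 129 with let-7i and 6.09 with the empty vector, a lower bound of 0.55 that does not limit the size. The 1 probe set of COL6A3, the largest chain, had 16.3 with let-7i and 42.5 with the empty vector, both under the floor, and no ratio is given.

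TNC encodes tenascin-C, a glycoprotein of wound and tumour matrix that modulates cell adhesion. It had 2591 with let-7i and 997 with the empty vector, a 2.59-fold higher level. Its second probe set, dim on both arrays (139 with let-7i and 91.3 with the empty vector), gave a log2 ratio of 0.60, and the third was below the floor on both. Averaging the probe sets gave 1.02. TNC lay between the 50th and 75th percentile of measured genes by signal, where 1.44% of 2785 genes passed 2-fold.

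POSTN encodes periostin, which binds fibronectin and tenascin-C in the matrix. Its brightest probe set had 304 with let-7i and 76.1 with the empty vector, a level at least 3.45-fold higher, and its other 3 probe sets were below the floor on both arrays. SPARC, a collagen-binding glycoprotein, had 229 with let-7i and 58.8 with the empty vector, at least 2.59-fold higher, but its other probe set (88.3 with let-7i and 21.4 with the empty vector) was only just above the floor with let-7i and gave a bound of 0.00. Both calls rest on dim signals. When the floor was raised to the 65th percentile, the log2 bound of POSTN was 0.40, and that of SPARC, at -0.01, left its direction open.

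DCN, decorin, a small proteoglycan that coats collagen fibrils, had 322 with let-7i and 163 with the empty vector, a 1.97-fold higher level just under the threshold. A second probe set (165 with let-7i and 57.0 with the empty vector) gave a lower bound of 0.90, and the other 5 were below the floor on both arrays. The log2 ratio of DCN was 1.05 after lowess centring and after quantile normalization, past 2-fold. When the floor was raised to the 65th percentile, it was a lower bound of 0.48. The related proteoglycans LUM (lumican) and BGN (biglycan) were below the floor on both arrays in all their probe sets.

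FN1, fibronectin, the adhesive glycoprotein of the interstitial matrix, went the other way. Its 5 measured probe sets had 6767, 6536, 6190, 6359 and 410 with let-7i against 13894, 12986, 12172, 11371 and 1052 with the empty vector. All 5 were lower with let-7i, with log2 ratios from -1.36 to -0.84, and the brightest was 2.06-fold lower. Among the brightest 25% of measured genes, to which FN1 belongs, 0.503% of 2785 passed 2-fold. Of its 5 measured probe sets 2 passed 2-fold and 3 did not.

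FBLN1, fibulin-1, a glycoprotein that binds fibronectin, was lower as well. Its brightest probe set had 2321 with let-7i and 3695 with the empty vector, a 1.60-fold lower level. All 5 probe sets above the floor on at least 1 array were lower with let-7i, and the 3 measured besides the brightest had log2 ratios between -0.36 and -0.18.

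The type V collagen chains, which set the diameter of collagen fibrils, were also lower. COL5A2 had 6050 and 3245 in its 2 probe sets with let-7i against 8679 and 4770 with the empty vector, log2 ratios of -0.52 and -0.56. COL5A1 had 3637 with let-7i and 4043 with the empty vector, and its 3 probe sets gave ratios between -0.38 and -0.16. All 5 probe sets of the 2 chains thus pointed the same way, none of them past 1.5-fold.

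Type I and type III collagen are the main fibrillar collagens of connective tissue. All probe sets of COL1A2 and COL3A1 were below the floor on both arrays. COL1A1 had 415 with let-7i and 346 with the empty vector in its brightest probe set, and 251 with let-7i and 236 with the empty vector in the second, log2 ratios of 0.26 and 0.08. Its other 3 probe sets were below the floor on both arrays, at 22.2 to 37.2 with let-7i and 18.4 to 61.8 with the empty vector, so the probe sets of COL1A1 disagree on whether the transcript was present.

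COL12A1, a collagen that sits on the surface of fibrils, had 5063 with let-7i and 5023 with the empty vector (0.01), with 5 probe sets between -0.36 and 0.15. THBS1, thrombospondin-1, a glycoprotein that can activate latent TGF-beta, had 2734 with let-7i and 2585 with the empty vector (0.08). Its other 3 measured probe sets gave ratios between -0.59 and -0.17, and another, below the floor with the empty vector (155 with let-7i and 82.4 with the empty vector), gave a bound of 0.82. For neither gene did the probe sets agree on a direction.

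FBN1, fibrillin-1, the backbone of elastic microfibrils, had 68.3 with let-7i and 113 with the empty vector, at least 1.42-fold lower and close to the floor. FBN2 and THBS2 were below the floor on both arrays. The 7 genes below it on both (COL1A2, COL3A1, COL6A3, FBN2, THBS2, LUM and BGN, all interstitial) had 18 probe sets with signals of 1.09 to 44.8 with let-7i and 1.37 to 54.8 with the empty vector.

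**Figure D2:**
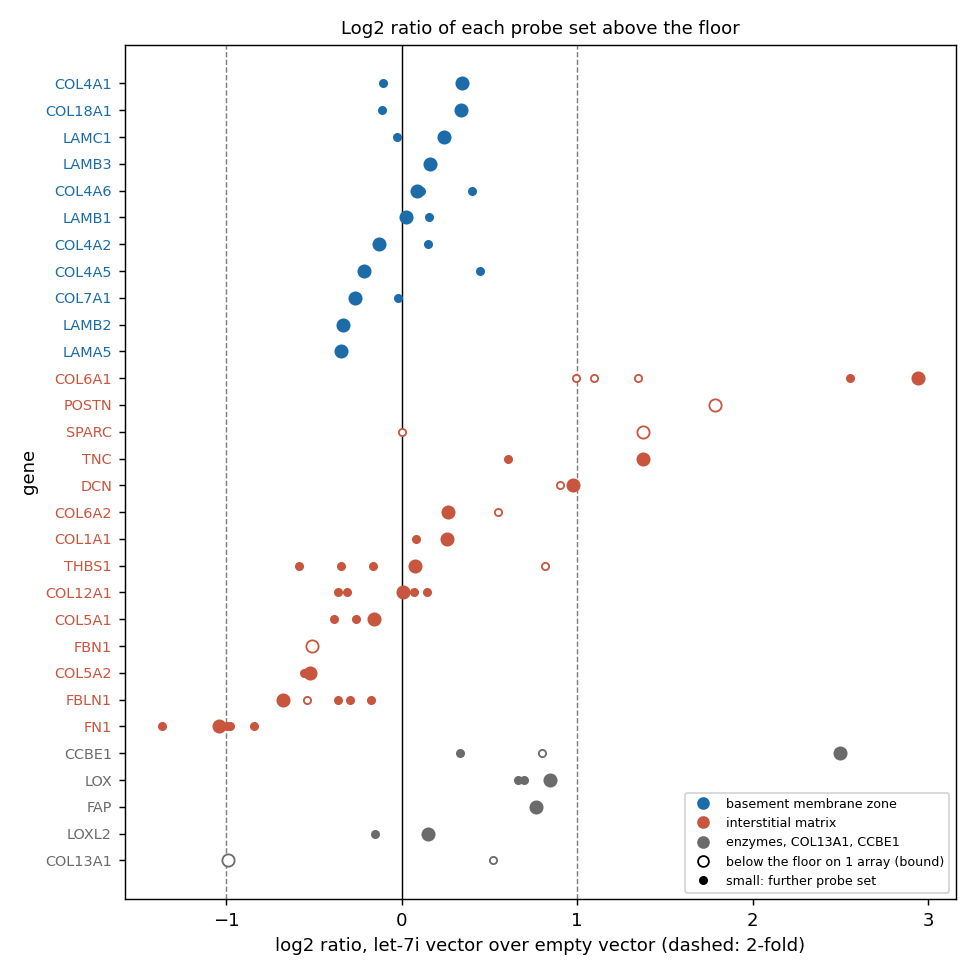
Log2 ratio (let-7i over empty vector) of every probe set above the floor on at least 1 array, by gene and role, with large points for the brightest probe set, small points for further ones and open points for lower bounds. The basement membrane genes stay between the dashed 2-fold lines, while COL6A1 (2.94) and FN1 (-1.04) lie outside them on opposite sides.

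Among the 14 interstitial genes with a ratio, 9 were higher and 5 lower, with values from -1.04 to 2.94 and a median of 0.17. Over the 11 measured ones 7 were higher and 4 lower and the median was 0.08. The difference in median, basement membrane minus interstitial, was -0.14 and turned positive in 3 of the settings tried, so the 2 forms of matrix were not set apart by direction. The sizes of the differences are given for the genes among the 39. The median absolute log2 ratio was 0.24 for basement membrane and 0.52 for interstitial genes measured on both arrays, against 0.18 for all such genes. Outside the 39 the order was the other way round, 0.75 for 7 further basement membrane genes and 0.46 for 16 further interstitial genes measured on both arrays, so the contrast holds for these members and not for the 2 forms of matrix in general. Every basement membrane gene of the 39 had an absolute ratio under 0.5, as did 5 of the 11 interstitial genes and 87.3% of all measured genes.

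Dim genes vary more, and the basement membrane genes were mostly bright. The share of genes past 2-fold was 3.99% in the dimmest 25% of measured genes, 2.05% in the next 25%, then 1.44%, and 0.503% in the brightest 25%. In the brightest 25%, where the median absolute ratio of all genes was 0.13, it was 0.21 for 7 basement membrane and 0.34 for 6 interstitial genes. The 6 interstitial genes among these ran from -1.04 to 0.08, and the 5 dimmer measured ones, COL6A1 and TNC among them, were all higher with let-7i. These counts describe 2 arrays and were not tested.

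The remaining genes belong to neither form of matrix. LOX, lysyl oxidase, had 683, 637 and 146 in its 3 probe sets with let-7i against 380, 401 and 89.6 with the empty vector, log2 ratios of 0.84, 0.66 and 0.70. All 3 were higher with let-7i by nearly the same factor, none past 2-fold. The related LOXL2 had 7211 with let-7i and 6491 with the empty vector (0.15), and its second measured probe set gave -0.15. FAP, a surface protease of activated fibroblasts, had 392 with let-7i and 230 with the empty vector, a 1.70-fold higher level in its 1 probe set.

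CCBE1, a secreted protein of lymphatic vessel growth with collagen-like repeats, had 510 with let-7i and 90.1 with the empty vector, a 5.65-fold higher level. The empty vector signal was just above the floor. The second probe set (145 with let-7i and 115 with the empty vector) gave a log2 ratio of 0.33 and the third (153 with let-7i and 66.9 with the empty vector) a lower bound of 0.80, so all 3 pointed the same way with very different sizes. Their average, which takes in that bound, was itself a lower bound of 1.24. COL13A1, a collagen of the cell membrane, was at least 1.99-fold lower (42.1 with let-7i and 158 with the empty vector), while another probe set (127 with let-7i and 22.7 with the empty vector) gave a bound of 0.52 in the opposite direction.

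Several of the genes that were higher with let-7i are used elsewhere as fibroblast markers, so other fibroblast markers are set beside them. Of 11 such markers outside the 39 genes, 8 were below the floor on both arrays, among them PDGFRA, PDGFRB, THY1 and PRRX1. None was at 0. The summed signals of the 11 were 1737 with let-7i and 1709 with the empty vector. S100A4 alone gave 966 with let-7i and 1140 with the empty vector, so the sums say little about the others. Of the 8 below the floor, all but CD248 read higher with let-7i, and no ratio is given there. TAGLN, an actin-binding protein, was higher with let-7i (155, against 89.4 with the empty vector, a log2 ratio of 0.79), but its 3 measured probe sets ran from 0.08 to 0.79, and ACTA2 and S100A4 had ratios of -0.12 and -0.24. The leukocyte marker PTPRC and the endothelial markers VWF and CDH5 were below the floor on both arrays. Of 6 leukocyte markers with a probe set 2 were above the floor, CD3E (log2 ratio -0.94) and ITGAM (0.27). The sums over all 6 were 340.0 with let-7i and 378 with the empty vector. Of 7 endothelial markers 2 were above it, with sums over all 7 of 673 with let-7i and 591 with the empty vector. EGFL7 had 184 with let-7i and 110 with the empty vector (0.74). PECAM1 had 372 with let-7i and 319 with the empty vector, its 3 measured probe sets running from -0.28 to 0.22. Bulk RNA cannot tell a few cells with much of a transcript from many with little.

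The sequences before the starts of FN1, TNC, SPARC, POSTN and CCBE1 are shown because these are the genes past 2-fold for which a promoter sequence was at hand (RefSeq, GRCh38.p14). Each is the 250 bases before the start, 5′ to 3′ along the gene. Capitals mark matches on either strand to the GC box and the CCAAT box named above and to 3 further motifs. The TATA box was searched for as TATAAA. The binding site of AP-1, a dimer of FOS and JUN proteins, was searched for as TGANTCA. The E-box that ZEB repressors bind was searched for as CACCTG. Neighbouring GC boxes can overlap.
FN1, chr2:215436069-215436318, minus strand: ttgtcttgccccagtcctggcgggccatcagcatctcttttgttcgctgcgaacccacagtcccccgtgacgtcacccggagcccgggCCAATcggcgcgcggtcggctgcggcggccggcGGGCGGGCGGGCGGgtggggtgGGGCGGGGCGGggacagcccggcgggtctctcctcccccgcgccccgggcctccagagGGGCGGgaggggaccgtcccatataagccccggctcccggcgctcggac
TNC, chr9:115118158-115118407, minus strand: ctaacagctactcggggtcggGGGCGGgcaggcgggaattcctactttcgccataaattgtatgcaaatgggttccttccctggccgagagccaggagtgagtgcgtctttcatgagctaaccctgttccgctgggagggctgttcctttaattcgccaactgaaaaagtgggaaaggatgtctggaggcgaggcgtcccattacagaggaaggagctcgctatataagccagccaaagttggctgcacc
SPARC, chr5:151686916-151687165, minus strand: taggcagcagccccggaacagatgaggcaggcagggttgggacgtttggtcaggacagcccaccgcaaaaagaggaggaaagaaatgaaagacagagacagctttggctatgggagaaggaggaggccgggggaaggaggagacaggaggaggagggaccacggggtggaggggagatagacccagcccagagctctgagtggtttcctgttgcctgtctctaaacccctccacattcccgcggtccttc
POSTN, chr13:37598769-37599018, minus strand: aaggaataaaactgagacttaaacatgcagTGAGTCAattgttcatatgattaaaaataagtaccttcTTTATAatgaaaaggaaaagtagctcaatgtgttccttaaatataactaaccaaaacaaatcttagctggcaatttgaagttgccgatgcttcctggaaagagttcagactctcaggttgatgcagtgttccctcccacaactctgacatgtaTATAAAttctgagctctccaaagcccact
CCBE1, chr18:59697424-59697673, minus strand: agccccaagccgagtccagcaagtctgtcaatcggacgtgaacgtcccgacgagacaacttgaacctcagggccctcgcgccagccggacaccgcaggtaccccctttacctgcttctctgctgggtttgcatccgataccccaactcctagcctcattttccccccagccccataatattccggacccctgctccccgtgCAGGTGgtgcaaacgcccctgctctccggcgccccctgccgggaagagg

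FN1, lower with let-7i, held 6 GC boxes and 1 CCAAT box. Among the genes that were higher, TNC held 1 GC box, POSTN 2 TATA boxes and 1 AP-1 match, CCBE1 1 E-box and SPARC none of the 5 motifs. Of 37 windows before starts of 30 of the 39 genes, the GC box was in 25, the CCAAT box in 10, the TATA box in 7, the E-box in 6 and the AP-1 match in 3. Over all 35116 windows of that length the shares were 42.6% for the GC box, 32.0% for the CCAAT box, 10.7% for the TATA box, 17.5% for the E-box and 6.57% for the AP-1 match. The GC box was in 14 of 17 windows of 13 basement membrane genes and 10 of 15 windows of 14 interstitial genes. These 13 include COL17A1 and LAMA3, which have no ratio here. Windows of the head-to-head type IV pairs share bases, and each was counted. Such matches are letters in a window and were not linked to the signals.

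Other genes of the same matrix were drawn from lists made by role, also with earlier results of these data known. Of 18 further basement membrane genes 10 were above the floor, with 7 lower, 2 higher and 1 of open direction, and a median of -0.59. COL4A4, a type IV chain, was at least 2.91-fold lower (45.2 with let-7i and 230 with the empty vector) and was the one past 2-fold. HSPG2, perlecan, the heparan sulfate proteoglycan of basement membranes, had 802 with let-7i and 1389 with the empty vector, a 1.74-fold lower level. LAMA2, a laminin alpha chain, was 1.89-fold lower (94.5 with let-7i and 178 with the empty vector), NTN4, a laminin-related protein, 1.85-fold lower and TINAGL1 1.68-fold lower, all 3 named after their values were seen. NID1, which links laminin to type IV collagen, was below the floor on both arrays.

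Of 28 further interstitial genes 19 were above the floor, with 7 higher and 12 lower and a median of -0.06. COL27A1, a fibrillar collagen, was 3.45-fold higher (322 in the let-7i culture and 93.0 in the empty vector culture), and its second probe set gave a lower bound of 1.23. COL16A1, a collagen associated with fibrils, had 1 probe set and was 2.11-fold lower (437 with let-7i and 918 with the empty vector). SPP1, osteopontin, was at least 2.75-fold lower (52.5 with let-7i and 218 with the empty vector). COL27A1 and COL16A1 thus lay past 2-fold in opposite directions.

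Genes of collagen folding, processing and cross-linking were 11 higher and 7 lower of 18 above the floor, with a median of 0.10. TGM2, a transglutaminase that cross-links matrix proteins including fibronectin, was the one past 2-fold. Its 3 measured probe sets had 2474, 793 and 593 with let-7i against 775, 237 and 233 with the empty vector, log2 ratios of 1.67, 1.74 and 1.34. All 3 were higher by a similar factor, in the culture in which FN1 was lower.

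**Figure D3:**
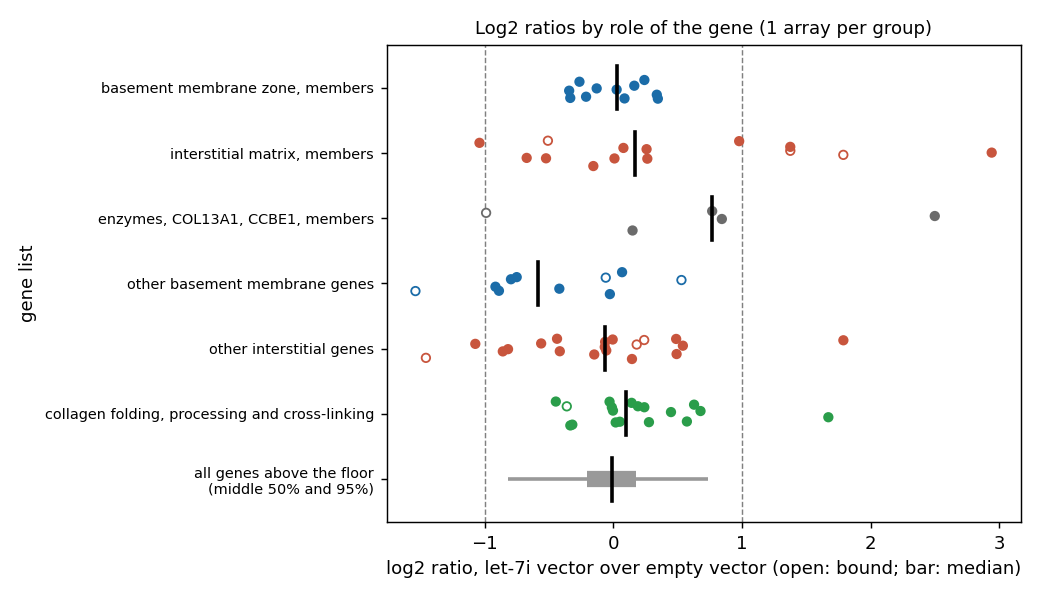
Log2 ratio (let-7i over empty vector) of each gene above the floor, by role, with open points for lower bounds, a black bar for the median, and a grey bar for the middle 50% and 95% of all 12284 genes. The basement membrane genes among the 39 lie between -0.34 and 0.35, the interstitial ones between -1.04 and 2.94.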

How the data were processed

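Total RNA of 2 OECM1 cultures was hybridised as biotin-labelled cRNA to 1 Affymetrix array each, per the labels' protocols. As deposited, the intensities are signals from MAS5, according to the submitters' processing notes. Neither the MAS5 version nor its settings are stated there. With 2% trimmed at each end the deposited intensities have a mean of 500.1 on both arrays, so differences in total RNA are not seen. No detection calls were used, and the number of arrays limits the precision.

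Probe sets were named through the platform annotation. Those with several symbols (1801) or not listed (11777 of 54675) were left out. Log2 signals were compared as described in the text, with genes called by size at 2-fold and no test. All members are accounted for, other matrix genes were named if past 2-fold, and NID1 and HSPG2 in any case. For 1 gene of the further lists no result is reported here. The members and all lists were chosen with earlier results of these data known. Alternatives were to omit centring, to centre by lowess (fraction 0.3, iterated 3 times), to normalize by quantiles, to set the floor at percentile 25 or 65, to average the probe sets above the floor (centring anew), to drop probe sets ending in _s_at or _x_at, to keep measured genes alone, and to call at 1.5-fold or 3-fold. The median absolute ratio was a later addition, chosen after seeing the data. The gene ratios and the 2-fold calls at the main settings were tested on simulated data. The alternative settings, the medians by role and the motif search were not. Simulated differences were placed only in genes measured on both arrays and outside the dimmest 25%. Each had the same factor in all probe sets of a gene. Calls that are lower bounds, as for POSTN and SPARC, or that rest on dim genes such as CCBE1 were therefore not tested in this way. Software versions were Python 3.11.15, NumPy 2.4.6, statsmodels 0.14.6, pandas 2.3.3 and Matplotlib 3.10.9.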

Additional observations from a re-analysis of the deposited data

How the results depend on the processing

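None of the 11 basement membrane genes among the 39 passed 2-fold under any setting that gave a value. Without probe sets that can match several transcripts, 8 of them had a value. For a list of 11, none is near the share of 2.43% over all genes. The median absolute ratio was between 0.14 and 0.25 for basement membrane and between 0.44 and 0.66 for interstitial genes of the 39. The count of the 39 genes past the threshold, 6 of 30, was 3 of 18 without probe sets that can match several transcripts. At 1.5-fold it was 11 of 30 and at 3-fold 3 of 30. The shares of all genes past the threshold were 2.43% as reported, 2.60% without those probe sets, 10.1% at 1.5-fold and 0.472% at 3-fold. With the lower floor (25th percentile) the count of the 39 genes was 9 of 37, where 10.3% of all genes passed. These 9 were 5 higher and 4 lower, against 5 higher and 1 lower as reported. The interstitial count with that floor was 7 of 21, with 4 higher and 3 lower. The interstitial count, 5 of 14 as reported, was 3 of 11 over measured genes, where 1.99% of all genes passed. It was 3 of 12 with the higher floor (65th percentile), where 1.37% of all genes passed. Without shared probe sets it was 2 of 9, and at 3-fold 2 of 14. The difference in median was 0.12 without shared probe sets, and also positive with the mean over probe sets and with the lower floor. The log2 ratio of SPARC was -0.013 with the higher floor, a bound of open direction. It was a bound of 0.72 with the mean over probe sets and of 0.02 without shared ones. COL6A1 was past 2-fold under every setting that gave a value, but its log2 ratio was a bound of 1.82 with the mean over probe sets and of 1.11 without shared ones. That of TNC was 1.02 with the mean. That of CCBE1 was a bound of 1.24 with the mean and of 1.14 with the higher floor. Such bounds do not show a smaller difference. FN1 had no value without shared probe sets, because its other probe sets were below the floor, and lay between -1.10 and -1.02 elsewhere. Of 30 genes, 24 kept their direction in every setting that gave a value. No paired analysis was possible because each group had 1 array.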
